A study of Mus musculus with 2 samples.

Results

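The Serpin genes of mouse liver were compared between mice given acetoaceto-o-toluidide (AAOT) and control mice. The family was taken as every gene whose symbol starts with Serpin, which gave 39 of the 15526 genes listed. Of these 39 genes, 22 had a mean over both libraries of at least 10 CPM (reads assigned to genes, scaled by the authors for library size), against 7761 of all genes. RefSeq (GRCm38.p6) annotates 69 mouse genes with such a symbol, of which 30 have no row in the table and were not analysed here.

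Both groups were 22-week-old female NOG-TKm30 mice. They carried a cDNA for HSVtk mutant clone 30, a herpes simplex virus thymidine kinase, under the enhancer and promoter of the mouse transthyretin gene, which is active in hepatocytes. The AAOT group received 0.3% AAOT for 4 weeks and the control group received 0% for the same time. Liver RNA of 3 mice was mixed into 1 library per group, so there was 1 AAOT pool and 1 control pool. NOG mice lack mature lymphocytes and natural killer cells. The labels name C57BL as well as NOG for these animals, and no source used here states the route of AAOT.

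Serpins are proteins with a shared fold in which an exposed stretch, the reactive centre loop, serves as bait for a protease. When the protease cuts the loop, the loop slots into the body of the serpin and the protease is trapped and distorted. Some members have lost this activity and carry hormones or fold other proteins instead. Hepatocytes make most of the serpins of blood plasma, which control clotting, fibrinolysis, complement and the proteases of neutrophils. The letter after Serpin names the clade. Rodents have several neighbouring copies of the genes for alpha1-antitrypsin (Serpina1) and for the relatives of human alpha1-antichymotrypsin (Serpina3).

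The copies differ in and around the loop, and these letters are shown because such differences decide which reads can be told apart. The coding sequences of GENCODE M21 on GRCm38 (mm10) are given 5′ to 3′ on the gene's strand, from the first codon of the conserved hinge before the loop to a conserved phenylalanine codon after it. Each stretch lies within 1 coding exon on chromosome 12. In the 5 Serpina1 copies it spans 87 bases, and capitals mark the bases that differ from Serpina1b. They number 6 in Serpina1a, 8 in Serpina1c, 9 in Serpina1d and 11 in Serpina1e. On the minus strand, the stretch of Serpina1b is at chr12:103728317-103728403 and that of Serpina1e at chr12:103947093-103947179.
Serpina1b: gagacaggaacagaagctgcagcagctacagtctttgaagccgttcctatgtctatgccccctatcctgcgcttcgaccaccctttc
Serpina1a: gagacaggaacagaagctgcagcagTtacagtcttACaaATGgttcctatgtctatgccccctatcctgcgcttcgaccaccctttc
Serpina1c: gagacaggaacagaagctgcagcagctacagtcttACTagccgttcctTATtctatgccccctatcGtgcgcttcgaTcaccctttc
Serpina1d: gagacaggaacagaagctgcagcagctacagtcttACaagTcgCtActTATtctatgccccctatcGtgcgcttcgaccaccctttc
Serpina1e: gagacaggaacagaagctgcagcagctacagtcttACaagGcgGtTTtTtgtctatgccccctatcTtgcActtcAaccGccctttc

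In the 4 Serpina3 copies above 10 CPM the stretch has different lengths, and here capitals mark the bases between the 33 bases of the hinge and the last 15 bases. The hinge of Serpina3k was identical to that of Serpina3m at 33 of 33 bases, and it shared 31 of 33 with those of Serpina3c and Serpina3n. The Serpina3k stretch is at chr12:104345263-104345352 on the plus strand and that of Serpina3c at chr12:104147307-104147393 on the minus strand.
Serpina3k: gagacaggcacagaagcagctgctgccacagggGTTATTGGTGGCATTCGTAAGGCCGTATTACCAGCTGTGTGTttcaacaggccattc
Serpina3c: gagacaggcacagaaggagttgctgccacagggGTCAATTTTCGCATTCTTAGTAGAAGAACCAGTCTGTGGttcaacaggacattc
Serpina3m: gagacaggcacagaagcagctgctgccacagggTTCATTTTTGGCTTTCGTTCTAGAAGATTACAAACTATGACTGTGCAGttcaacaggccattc
Serpina3n: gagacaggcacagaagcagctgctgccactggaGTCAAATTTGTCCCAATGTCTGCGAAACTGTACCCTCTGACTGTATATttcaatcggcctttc

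Taken as a sum, Serpin transcripts reached 23744 CPM in the AAOT pool and 31765 CPM in the control pool, or 2.40% and 3.14% of the reads assigned to genes. The ratio of the sums was 0.747, with an exact 95% interval of 0.744 to 0.751 from the read counts. Such intervals cover counting error only and leave out differences between mice, pools and library preparations, and with 1 library per group no test was possible. Serpina3k alone accounted for 5540 CPM, or 69.1%, of the 8021 CPM by which the AAOT pool was below the control pool, and without it the ratio of the sums was 0.883 (0.879 to 0.887). In the same pools the 8 hepatocyte markers summed to 80147 CPM in the AAOT pool and 95525 CPM in the control pool, a ratio of 0.839. Most of that sum was Alb, at 50830 CPM in the AAOT pool and 57688 CPM in the control pool, a ratio of 0.881. The median log2 ratio of the 8 was -0.40, with single ratios from 0.612 for Apoa1 to 1.34 for Tat. All 8 were above 10 CPM, and their part in the serpin values was not tested. In RNA from whole liver, fewer cells of a type and less RNA per cell cannot be told apart.

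A gene was counted as higher or lower where log2((AAOT + 1)/(control + 1)), in CPM, was at least 2-fold and the mean was at least 10 CPM. By this rule 3 of the 22 Serpin genes were lower in the AAOT pool, Serpina4-ps1, Serpina3c and Serpina3k, where 0.425% of the 7761 genes were lower. None of the 22 was higher, where 0.773% of the 7761 genes were. The median log2 ratio of the 22 was -0.14 and that of the 7761 genes was -0.02. Of the 22, 18 had a log2 ratio below 0 and 4 above it, where 4157 of the 7761 genes were below 0 and 3604 above. The counting interval lay below a ratio of 1 for 16 of the 22 and above it for 3 (Serpina6, Serpinb1a and Serpinb9). It included 1 for 3 (Serpina10, Serpina1e and Serpind1). Such intervals were not counted over all genes, and at high read counts small differences already exclude 1. The 14 clade A genes above 10 CPM had a median of -0.39 and the 8 genes of the other clades -0.07. All 3 lower genes belong to clade A and lie in 1 cluster on chromosome 12.

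**Figure D1:**
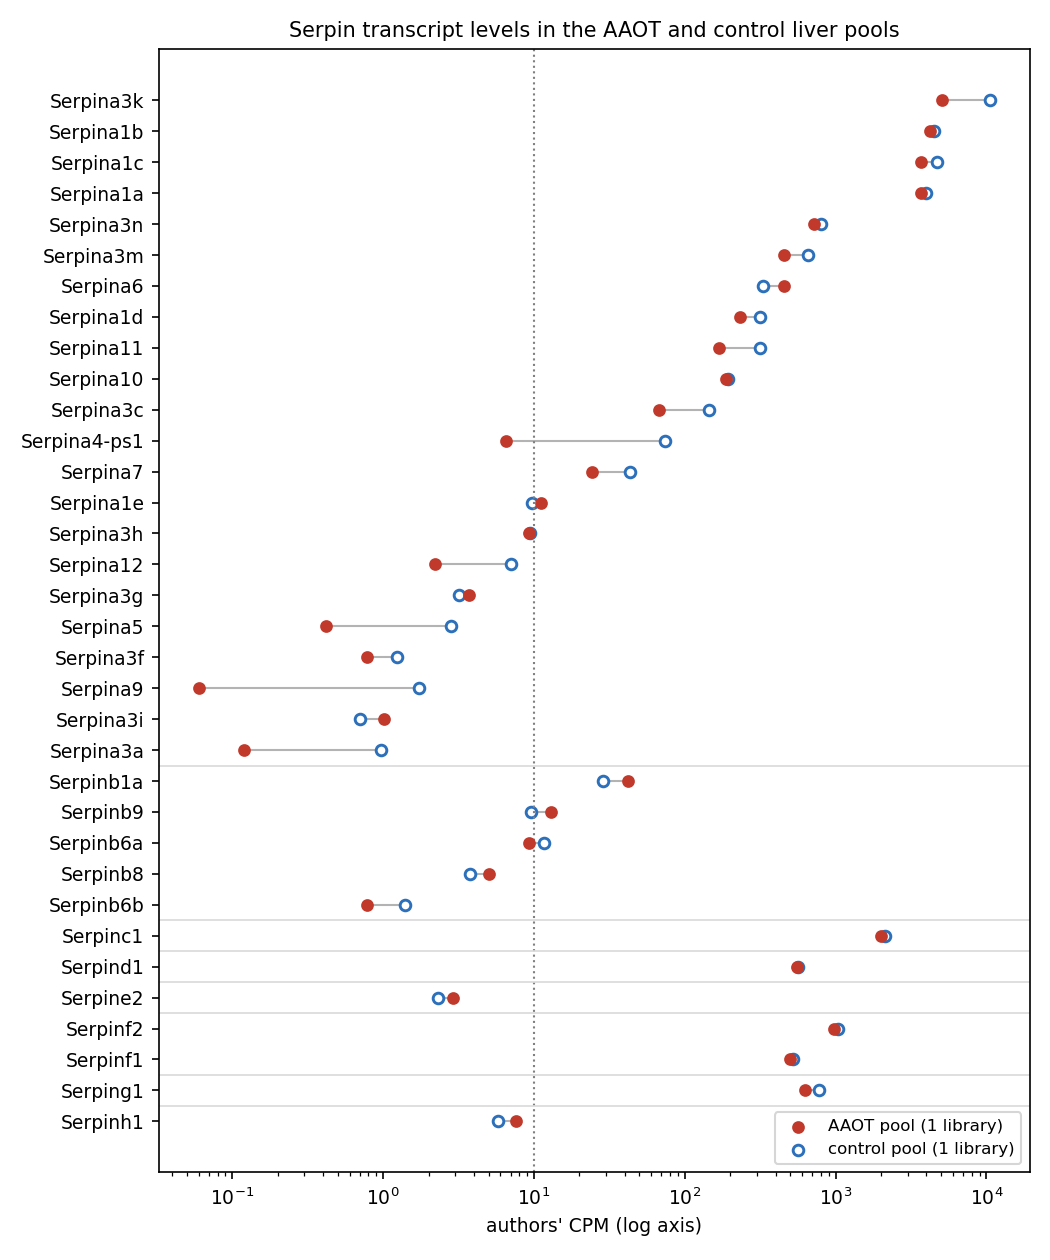
Level of the Serpin genes described here with a mean of at least 10 CPM or at least 10 reads in either library, in the AAOT pool (filled red) and the control pool (open blue), on a log axis of CPM, grouped by clade and ordered by mean level. Each point is 1 library made from 3 mice, and the dotted line marks 10 CPM. Among the genes with a mean above that line the widest gap is that of Serpina4-ps1, at 6.51 CPM in the AAOT pool and 74.5 CPM in the control pool, while the points of Serpinc1, Serpind1, Serpinf1 and Serpinf2 nearly overlap.

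The alpha1-antitrypsin copies, whose human counterpart inhibits neutrophil elastase, were together the most abundant set of copies in both pools. They summed to 11863 CPM in the AAOT pool and 13496 CPM in the control pool, a ratio of 0.879 (0.874 to 0.884). Serpina1b (chr12:103728156-103738189) had 4250 CPM in the AAOT pool and 4463 CPM in the control pool, a ratio of 0.952 (0.943 to 0.962). Serpina1a had 3666 CPM in the AAOT pool and 3992 CPM in the control pool, a ratio of 0.918 (0.908 to 0.928). These high copies stood close together in both pools, with the control pool slightly above.

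Serpina1c had 3703 CPM in the AAOT pool and 4716 CPM in the control pool, a ratio of 0.785 (0.777 to 0.793). Serpina1d had 234 CPM in the AAOT pool and 315 CPM in the control pool, a ratio of 0.741 (0.711 to 0.772). Serpina1e had 11.1 CPM in the AAOT pool and 9.69 CPM in the control pool, a ratio of 1.14 (0.924 to 1.41). The order of the copies therefore differed, since Serpina1b was the most abundant in the AAOT pool and Serpina1c in the control pool. Serpina1c made up 31.2% of the reads of the copies in the AAOT pool (Wilson 95% interval 31.0 to 31.4) and 34.9% in the control pool (34.8 to 35.1). The same order held per kilobase of the longest RefSeq-linked transcript, where Serpina1b led in the AAOT pool with 3049 CPM per kb and Serpina1c in the control pool with 3465 CPM per kb.

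How far reads could be assigned to 1 copy was measured as the share of 50-base stretches of a gene's transcript that occur in no transcript of another gene. The share was 25.8% for Serpina1c, 32.6% for Serpina1a, 49.1% for Serpina1d, 52.9% for Serpina1b and 62.1% for Serpina1e. Serpina1c shared 69.4% of its stretches with Serpina1a. Differences between single Serpina1 copies thus depend on how the authors' counting divided shared reads, and the sum over the copies does not depend on a division among them. The copies also share between 23.0% and 37.4% of their stretches with the pseudogene Gm8893, which has no row in the table, so the sum does depend on how reads shared with it were assigned. Among the Serpina3 copies the share was 86.0% for Serpina3k, 80.9% for Serpina3m, 93.1% for Serpina3n and 95.7% for Serpina3c. Serpina3k shared 12.8% of its stretches with Serpina3m, and Serpina3a, with almost none shared, is left out of the plot of shared stretches. Across the 22 genes 8 had less than 90%, and the eighth was Serpina11 at 56.1%, which shares exons with the readthrough RNA Gm28577. The gene models of Serpina1b and Serpina1d overlap on the same strand, as do those of Serpina3k and Serpina3m.

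**Figure D2:**
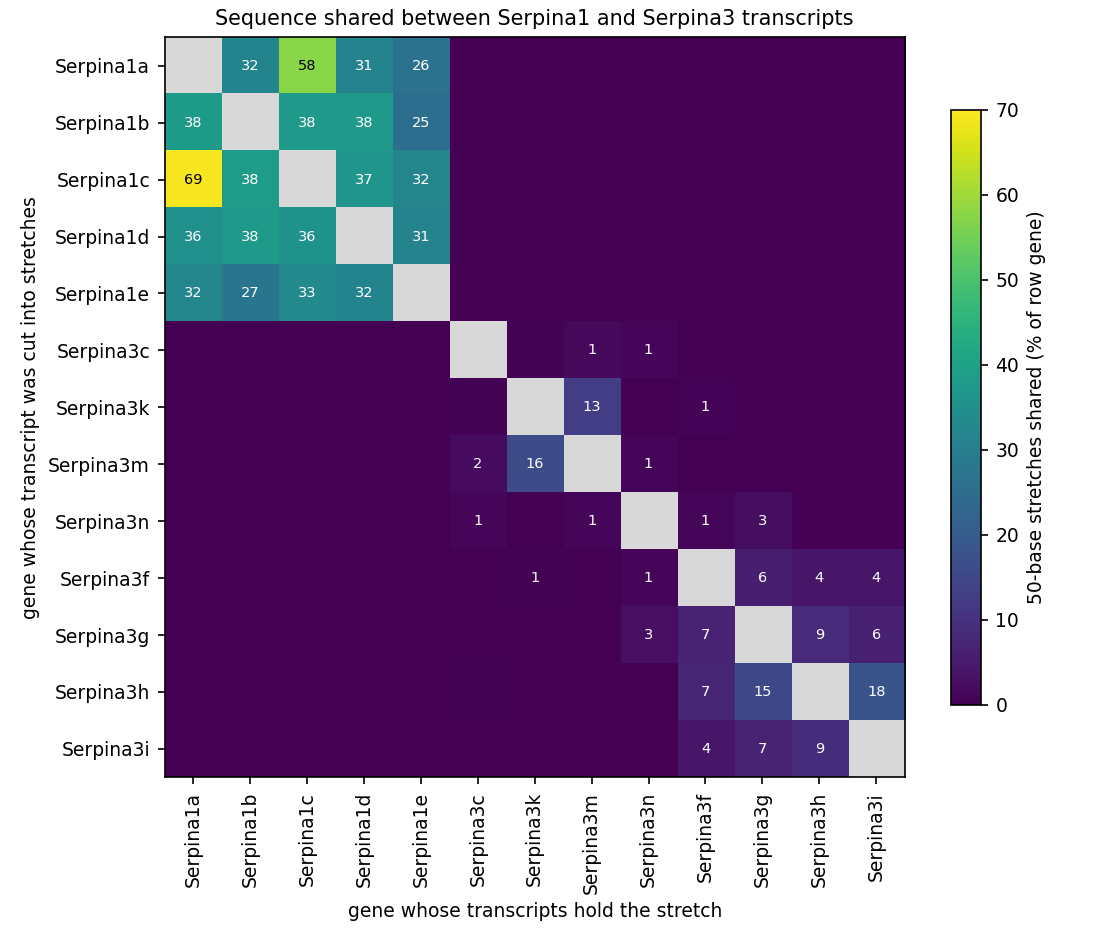
Share of the 50-base stretches of the transcripts of 5 Serpina1 and 8 Serpina3 copies (rows) that also occur in transcripts of another copy (columns), as a colour and as a whole percentage where that is at least 1. Serpina1c shares 69.4% of its stretches with Serpina1a, and no stretch of a Serpina1 transcript is shared with a Serpina3 copy.

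The Serpina1 copies were also alike upstream of their starts. RefSeq (GRCm38.p6) gave a promoter window, from 250 bases before to 50 bases after the start, for 29 of the 39 genes. The 5 Serpina1 windows share an unbroken run of 59 bases, found in 5 of 32544 distinct mouse promoter windows (0.0154%). The windows of Serpina1b, the copy with the highest level per kilobase in the AAOT pool, and of Serpina1e, the lowest copy in both pools, are shown with that run in capitals. Serpina1b is at chr12:103738140-103738439 and Serpina1e at chr12:103956848-103957147, both on the minus strand. Over 248 aligned bases, 244 (98.4%) were identical, the highest share of any pair of copies. The other pairs of Serpina1 windows were 91.7% to 96.2% identical over their aligned bases. The run lies 65 to 7 bases before the annotated start of Serpina1b and 117 to 59 bases before that of Serpina1e, so the annotated starts sit at different places in the shared sequence. Per kilobase of transcript, Serpina1b had a level of 3049 CPM in the AAOT pool and 3202 CPM in the control pool, while Serpina1e had 8.54 CPM and 7.49 CPM in the same pools.
Serpina1b: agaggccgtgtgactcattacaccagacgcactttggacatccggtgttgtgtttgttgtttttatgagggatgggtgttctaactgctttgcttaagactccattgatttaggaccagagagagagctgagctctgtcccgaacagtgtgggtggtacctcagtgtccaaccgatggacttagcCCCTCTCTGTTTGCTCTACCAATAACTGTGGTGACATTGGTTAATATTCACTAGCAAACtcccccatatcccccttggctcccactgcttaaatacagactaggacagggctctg
Serpina1e: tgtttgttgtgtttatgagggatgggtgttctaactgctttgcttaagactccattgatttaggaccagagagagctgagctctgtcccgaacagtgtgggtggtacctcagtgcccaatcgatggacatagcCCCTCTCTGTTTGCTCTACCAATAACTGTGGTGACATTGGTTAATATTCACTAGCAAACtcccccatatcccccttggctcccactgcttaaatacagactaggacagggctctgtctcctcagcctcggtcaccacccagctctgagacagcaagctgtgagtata

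Motifs of factors that act on liver genes were looked for on both strands of the windows, with no mismatch. The 29 genes have 34 distinct windows, since 5 genes have more than 1 annotated start. The palindromic HNF1 motif was found in 0 of the 34 windows, against 3 of 32544 distinct mouse windows (0.00922%). A full palindrome without mismatch is so rare that its absence says nothing about HNF1 sites with other letters, which were not looked for. The STAT motif TTCNNNGAA was found in 9 of the 34 windows (26.5%), against 8.33% of all windows. Those windows belong to 6 genes, Serpina11, Serpina3f, Serpina3g, Serpina3i, Serpinb2 and Serpinb6a. The C/EBP motif TTGCNNAA was found in 13 of the 34 windows (38.2%), against 10.8% of all, and the 10 genes with it included Serpina1a, Serpina1b, Serpina1d and Serpina1e. Relative to the annotated start, the match began at -161 in Serpina1b, -149 in Serpina1d and -211 in Serpina1e. In Serpina1a the only match began after the start, at 24. Windows of 1 gene and of related copies share sequence, so they are not independent counts. A match describes letters in these windows and no binding was measured.

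The Serpina3 copies carried the largest absolute difference in the family. Serpina3k (chr12:104338486-104345739, plus strand), known in mice as contrapsin, had 5043 CPM in the AAOT pool and 10583 CPM in the control pool, from 84388 and 196522 reads. It was 2.10-fold lower in the AAOT pool (2.08 to 2.12) and ranked 15th of all genes there, against 7th in the control pool. Serpina3k held 80.0% of the reads of the Serpina3 copies in the AAOT pool (Wilson 95% interval 79.8 to 80.3) and 86.7% in the control pool (86.6 to 86.9). Serpina3c, at 67.9 CPM in the AAOT pool and 145 CPM in the control pool, was lower by about the same fold, 2.14 (1.99 to 2.29).

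The other abundant copies differed less. Serpina3m had 458 CPM in the AAOT pool and 658 CPM in the control pool, a ratio of 0.696 (0.676 to 0.716). Serpina3n, which inhibits granzyme B in mice and is an acute phase gene, had 719 CPM in the AAOT pool and 802 CPM in the control pool, a ratio of 0.896 (0.875 to 0.918). The 9 copies listed summed to 6302 CPM in the AAOT pool and 12203 CPM in the control pool, 1.94-fold lower in the AAOT pool (1.92 to 1.95). Without Serpina3k the ratio of the sums was 0.777 (0.764 to 0.791).

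Of the 5 Serpina3 copies below 10 CPM, 4 had intervals that included 1, and their levels were low. Serpina3h, annotated as a transcribed pseudogene, had 9.20 CPM in the AAOT pool and 9.37 CPM in the control pool, and the sign of its log2 ratio flipped when the library total was used for scaling. Serpina3g, a cytosolic inhibitor of cathepsins in mouse leukocytes, had 3.70 CPM in the AAOT pool and 3.18 CPM in the control pool. Serpina3i had 1.02 CPM in the AAOT pool and 0.7001 CPM in the control pool, and Serpina3f 0.777 CPM and 1.24 CPM in the same pools. Serpina3a had 2 reads in the AAOT pool and 18 reads in the control pool, a ratio of 0.123 (0.0139 to 0.515).

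Serpina4-ps1 (chr12:104077959-104086920, plus strand) had the widest relative difference of the 22. It is annotated as a transcribed pseudogene and corresponds to the human gene for kallistatin, an inhibitor of tissue kallikrein. It had 6.51 CPM in the AAOT pool (109 reads) and 74.5 CPM in the control pool (1383 reads), and was 11.4-fold lower in the AAOT pool (9.40 to 14.03). Its ratio was the 2nd lowest of the 7761 genes. All of its 50-base stretches were unique (100%).

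Serpina11 and Serpina7 came close to 2-fold without reaching it. Serpina11 had 169 CPM in the AAOT pool and 313 CPM in the control pool and was 1.85-fold lower in the AAOT pool (1.77 to 1.94). Serpina7, thyroxine-binding globulin, which carries thyroid hormone and inhibits no protease, lies on chromosome X, apart from the cluster. It had 24.3 CPM in the AAOT pool and 43.2 CPM in the control pool and was 1.78-fold lower in the AAOT pool (1.58 to 2.01). The other hormone carrier, Serpina6 or corticosteroid-binding globulin, stood on the opposite side, with 457 CPM in the AAOT pool and 331 CPM in the control pool, a ratio of 1.38 (1.33 to 1.43). Serpina10, the protein Z-dependent inhibitor of coagulation factor Xa, had 187 CPM in the AAOT pool and 194 CPM in the control pool, a ratio of 0.967 (0.922 to 1.02).

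Below 10 CPM 3 further clade A genes were at least 2-fold lower in the AAOT pool. Without the minimum level, 6 of the 22 clade A genes were at least 2-fold lower and 0 at least 2-fold higher. Over all 15526 genes, again without it, 0.386% were at least 2-fold lower and 0.605% at least 2-fold higher. Serpina12, known as vaspin, had 2.21 CPM in the AAOT pool (37 reads) and 7.05 CPM in the control pool (131 reads), and was 3.19-fold lower in the AAOT pool (2.20 to 4.73). Serpina5, the protein C inhibitor, had 0.418 CPM in the AAOT pool (7 reads) and 2.80 CPM in the control pool (52 reads), and was 6.69-fold lower in the AAOT pool (3.03 to 17.5). Serpina9, known from germinal centre B cells in humans, had 1 read in the AAOT pool and 32 reads in the control pool, a ratio of 0.0347 (0.000852 to 0.208). With so few reads the counting intervals are wide, although each of the 3 lies below a ratio of 1.

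Along chromosome 12 these low ratios were next to each other. The cluster spans 798 kb (chr12:103616675-104414334), and 21 of its 28 annotated Serpina genes were listed. From Serpina11 to Serpina3c, 7 consecutive listed genes over 174 kb had ratios from 0.0347 to 0.539, with all 7 counting intervals below 1. This run was chosen after the values were seen. Both strands are represented, with 3 genes on the plus strand and 4 on the minus strand, and 3 of the 7 were above 10 CPM. To the left, the 7 listed genes from Serpina10 to Serpina1e had ratios from 0.741 to 1.38. To the right, the 7 from Serpina3f to Serpina3n had ratios from 0.477 to 1.45, with Serpina3k the lowest. The run thus has the abundant Serpina1 copies on one side and the low Serpina3f, Serpina3g, Serpina3h and Serpina3i on the other, and Serpina3k is not part of it. Within 500 kb of the cluster 9 other genes were listed. Of these, 5 were above 10 CPM, none of which was 2-fold apart, and their log2 ratios ran from -0.09 to 0.21.

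**Figure D3:**
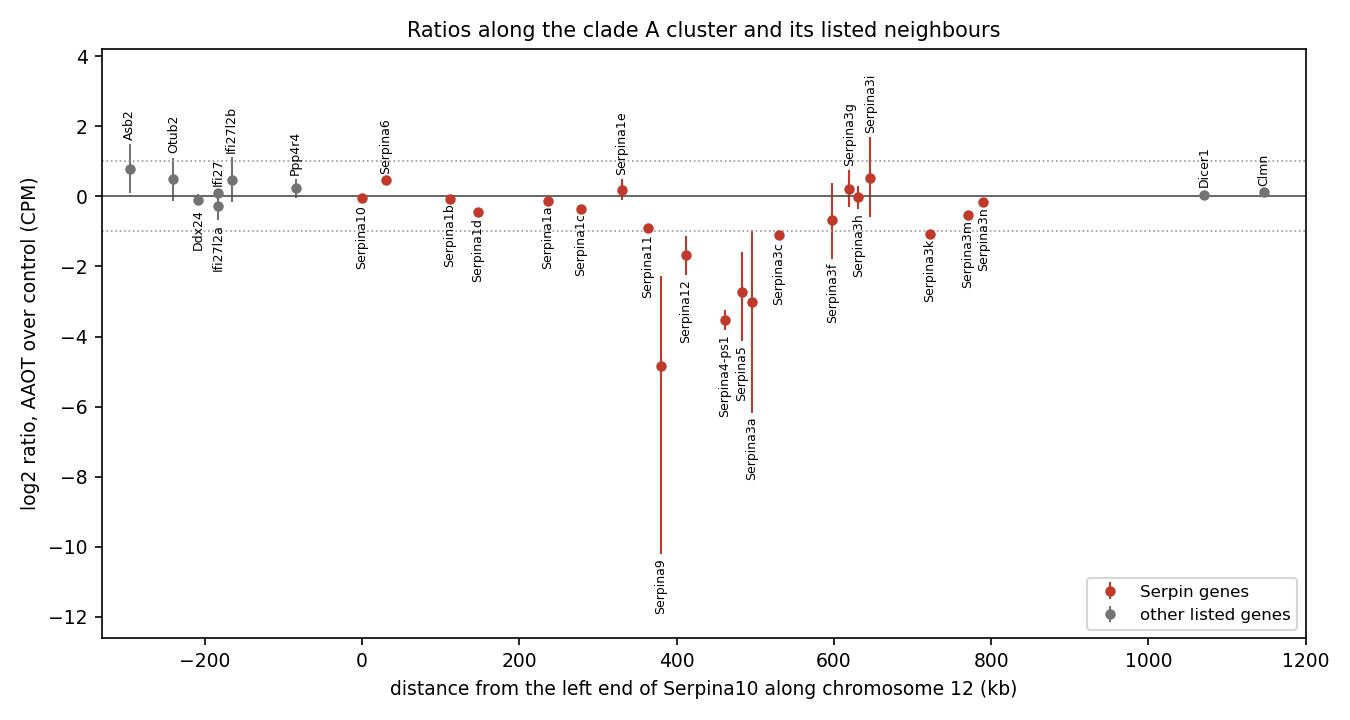
log2 ratio of AAOT over control (CPM) against the distance in kb from the left end of Serpina10 on chromosome 12, for listed Serpin genes and the other listed genes within 500 kb. Points are ratios of the plain CPM values and bars are 95% counting intervals, and dotted lines mark 2-fold. The 7 genes from Serpina11 to Serpina3c, with ratios from 0.0347 to 0.539, lie below the Serpina1 copies on their left.

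Serpinc1, Serpind1 and Serpinf2, which act in clotting and fibrinolysis, had ratios from 0.930 to 0.997. Serpinc1, antithrombin, had 1988 CPM in the AAOT pool and 2138 CPM in the control pool, a ratio of 0.930 (0.917 to 0.944). Serpind1, heparin cofactor II, had 557 CPM in the AAOT pool and 559 CPM in the control pool, a ratio of 0.997 (0.969 to 1.03), and the sign of its log2 ratio flipped under 3 other scalings. Serpinf2, alpha2-antiplasmin, which inhibits plasmin, had 982 CPM in the AAOT pool and 1041 CPM in the control pool, a ratio of 0.943 (0.924 to 0.963). The counting intervals of antithrombin and alpha2-antiplasmin lay slightly below 1, and that of heparin cofactor II included 1. Scaled by library total, the log2 ratios of Serpinc1 and Serpinf2 were -0.07 and -0.05, against -0.10 and -0.08 as reported.

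Serping1, the C1 inhibitor of the complement and contact systems, had 622 CPM in the AAOT pool and 772 CPM in the control pool, a ratio of 0.806 (0.786 to 0.827). Serpinf1, pigment epithelium-derived factor, which does not inhibit proteases, had 499 CPM in the AAOT pool and 520 CPM in the control pool, a ratio of 0.959 (0.931 to 0.988). Serping1 had the lowest ratio of the genes of clades C to I above 10 CPM. Angiotensinogen (Agt) belongs to the family by its fold but has no Serpin symbol. It had 623 CPM in the AAOT pool and 741 CPM in the control pool, a ratio of 0.842 (0.820 to 0.863). Without a stated counting strand, reads of Serpind1, Serpinc1 and Serpinb6a could also come from genes that overlap them on the opposite strand (Pi4ka, Zbtb37 and Nqo2).

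The clade E genes described here were low in both pools. Serpine2, protease nexin 1, had 2.93 CPM in the AAOT pool and 2.32 CPM in the control pool, with an interval that included a ratio of 1 (0.822 to 1.95). Serpine3 had 0 reads in the AAOT pool and 2 in the control pool, where a count of 0 allows up to 0.179 CPM in the AAOT pool.

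Clade B serpins act inside cells, where they protect against proteases that escape from granules. Serpinb1a, an inhibitor of neutrophil proteases, had 42.0 CPM in the AAOT pool and 28.6 CPM in the control pool, a ratio of 1.47 (1.31 to 1.65). Serpinb9, an inhibitor of granzyme B, had 12.9 CPM in the AAOT pool and 9.59 CPM in the control pool, a ratio of 1.35 (1.10 to 1.65). Serpinb6a, an inhibitor of cathepsin G, had 9.26 CPM in the AAOT pool and 11.7 CPM in the control pool, a ratio of 0.793 (0.641 to 0.979). Serpinb1a and Serpinb9 were thus higher in the AAOT pool and Serpinb6a lower, each by less than 2-fold.

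Markers of the leukocytes that hold such granules were near the limit of detection. Of the 7 neutrophil markers 6 were listed, and they summed to 1.20 CPM in the AAOT pool and 0.808 CPM in the control pool, with Ngp at 0 in the control pool. None of the 6 lymphocyte markers had a row. The 8 Kupffer cell markers summed to 324 CPM in the AAOT pool and 302 CPM in the control pool. All 5 above 10 CPM had log2 ratios above 0, from 0.02 to 0.28, but the intervals of Clec4f, Cd5l and Vsig4 included a ratio of 1. Below 10 CPM, Marco had a log2 ratio of 0.56, while Cd68 and Timd4 had -0.09 and -0.39. The part of these cell types in the Serpinb1a and Serpinb9 values was not tested. Among rarer members of the clade, Serpinb8 had 5.02 CPM in the AAOT pool and 3.77 CPM in the control pool, and Serpinb6b 13 reads in the AAOT pool and 26 in the control pool, both with intervals that included a ratio of 1. Serpinb10 had 1 read in each pool, and Serpinb2 had 2 reads in the AAOT pool and 0 in the control pool.

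Serpinh1, the collagen chaperone of the endoplasmic reticulum, had 7.65 CPM in the AAOT pool (128 reads) and 5.82 CPM in the control pool (108 reads), a ratio of 1.32 (1.01 to 1.72). Of the 17 collagens and collagen-modifying enzymes listed with it, 11 were above 10 CPM and none was 2-fold apart, with a median log2 ratio of -0.11. P4hb, a subunit of prolyl hydroxylase, had 1053 CPM in the AAOT pool and 1118 CPM in the control pool. Ppib had 119 CPM in the AAOT pool and 139 CPM in the control pool, and Col4a1 53.3 CPM and 52.2 CPM. The last member, Serpini1 or neuroserpin, had 6 reads in the AAOT pool and 9 reads in the control pool.

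Proteases of plasma, liver, leukocytes and pancreas were set beside the serpins. Of 13 coagulation and fibrinolysis proteases 11 were above 10 CPM, and none was 2-fold apart. Their median log2 ratio was -0.14, with 8 below 0 and 3 above. Plg, the precursor of plasmin, had 2926 CPM in the AAOT pool and 3110 CPM in the control pool, F2 (prothrombin) 1508 CPM and 1724 CPM, and F12 462 CPM and 555 CPM. Of 13 complement and other liver proteases 10 were above 10 CPM, none 2-fold apart, with a median of 0.05. Tmprss6 had 707 CPM in the AAOT pool and 760 CPM in the control pool, Furin 473 CPM and 423 CPM, and Hpn 367 CPM and 355 CPM. Prss8, prostasin, a membrane-anchored protease with a mean below 10 CPM, had 10.8 CPM in the AAOT pool and 3.72 CPM in the control pool, a ratio of 2.91 (2.19 to 3.90). Of 14 leukocyte and pancreas proteases, 5 were listed and none reached a mean of 10 CPM.

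Receptors and cofactors of serpins above 10 CPM had log2 ratios from -0.34 to 0.49, with 5 below 0 and 3 above. Of 12 listed, 8 were above 10 CPM, none was 2-fold apart, and the median log2 ratio was -0.11. Lrp1, which clears serpin and protease complexes, had 2169 CPM in the AAOT pool and 2490 CPM in the control pool. Vtn, vitronectin, an adhesion protein of plasma and matrix, had 1661 CPM in the AAOT pool and 2060 CPM in the control pool, and the heparan sulfate proteoglycan Sdc4 545 CPM and 690 CPM. All 17 genes for export and disposal of alpha1-antitrypsin from the endoplasmic reticulum were above 10 CPM, none 2-fold apart, with a median of -0.01 and log2 ratios from -0.16 to 0.07. Among them the chaperone Calr had 589 CPM in the AAOT pool and 651 CPM in the control pool, Hspa5 511 CPM and 508 CPM, and Canx 501 CPM and 504 CPM.

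Of 15 protease inhibitors outside the family 14 were listed and 11 were above 10 CPM, with a median log2 ratio of -0.22. Only Mug1 among the 11 was 2-fold apart. Mug1, murinoglobulin 1, an inhibitor that encloses proteases of several classes, had 2705 CPM in the AAOT pool and 6465 CPM in the control pool, 2.39-fold lower in the AAOT pool. Pzp, of the same family of macroglobulins, had 5653 CPM in the AAOT pool and 6588 CPM in the control pool, and Itih4 2658 CPM and 3315 CPM. How far Mug1 shares sequence with Mug2 was not assessed.

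Of 12 regulators of liver serpin genes 10 were above 10 CPM, none 2-fold apart, with a median log2 ratio of -0.07. Hnf4a had 771 CPM in the AAOT pool and 784 CPM in the control pool, Cebpa 352 CPM and 412 CPM, and Stat3 145 CPM and 141 CPM. Socs3, a target and inhibitor of STAT3 signalling, had a mean just below the minimum, with 4.42 CPM in the AAOT pool and 15.3 CPM in the control pool, a ratio of 0.288 (0.220 to 0.373). Socs3 and Prss8 are named here after their values were seen.

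**Figure D4:**
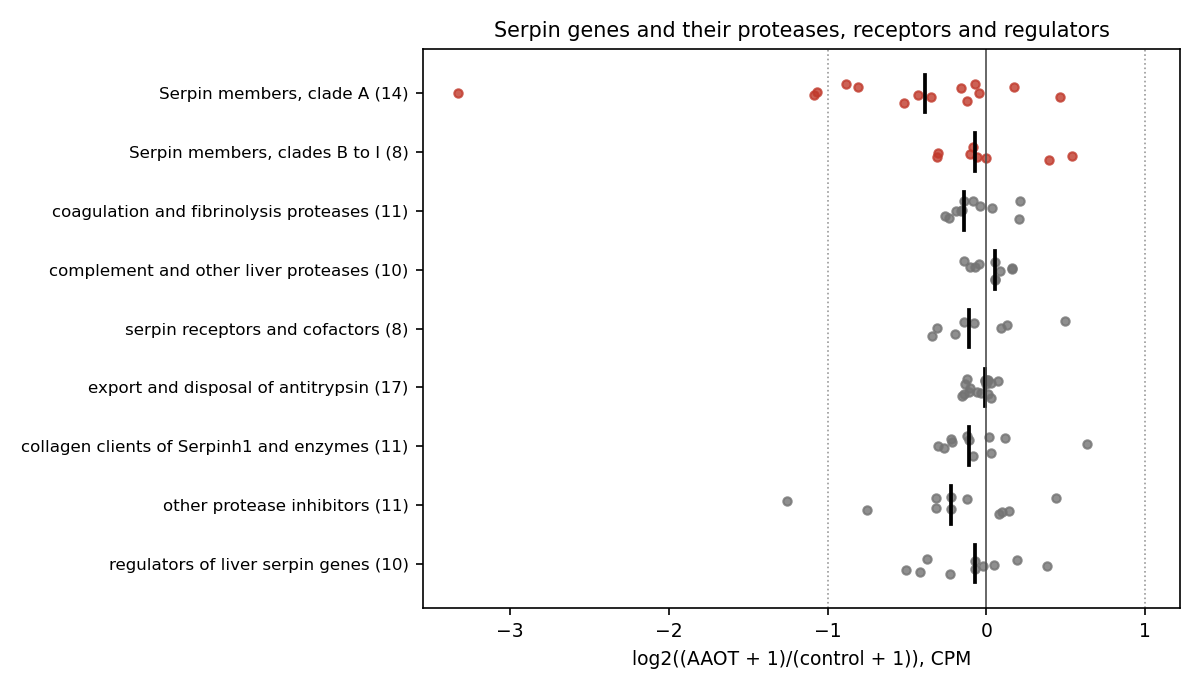
log2((AAOT + 1)/(control + 1)) in CPM of each gene above 10 CPM in clade A, in the other Serpin clades and in the lists of proteases, receptors, export genes, collagens, other inhibitors and regulators, with 1 point per gene, a bar at each median and the number of genes in brackets. The median is -0.39 for clade A and -0.07 for the other clades, and the export genes lie between -0.16 and 0.07.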

How the data were processed

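Per the labels' protocols, 200 ng of column-purified liver RNA per library was depleted of ribosomal RNA and sequenced with strand kept. What was deposited is a single table of CPM, a column for each pool. Trimmomatic 0.38, Bowtie2, RSEM, edgeR and the build mm10 are named in the submitters' processing notes, without their roles. Annotation and counting strand are not stated. The deposited CPM summed to 987690 in the AAOT pool and 1012463 in the control pool, and all values (100%) were whole multiples of 1 step per column within a relative tolerance of 1e-06, which gave 16528533 and 18801241 reads in the same order of pools. A single read is worth 0.0598 CPM in the AAOT pool and 0.0539 CPM in the control pool. The 20 most abundant genes took 23.7% of reads in the AAOT pool and 25.1% in the control pool.

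No count model or p-value was computed, because each group is 1 library. Folds are ratios of CPM, and calls used log2 ratios with 1 CPM added. Intervals are exact (Clopper-Pearson, 95%, conditional on the summed reads) and treat reads as independent molecules. Every member with a mean of at least 10 CPM was named, below that each with at least 10 reads in either library, and of each list the 3 genes with the highest mean and any above 10 CPM that was 2-fold apart. The remaining 4 members are named with their reads, and a member that this rule takes is not reported here. Members and lists were chosen with earlier results of these data known. Recovery of reads, the calls and the interval coverage were tested on simulated data. Those data held counting error only, so they do not test variation between mice, pools or libraries, or the division of shared reads. Software was Python 3.11.15 with scipy 1.17.1, pandas 2.3.3, matplotlib 3.10.9 and numpy 2.4.6. Gene positions and promoters are those of RefSeq on GRCm38.p6, and transcripts those of GENCODE M21.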

Additional observations from a re-analysis of the deposited data

How the results depend on the processing

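No Serpin gene was 2-fold higher under any setting tried, and the median log2 ratio of the family stayed between -0.15 and -0.10. Other scalings were the library total, the median of ratios, the total without the 20 most abundant genes and the upper quartile. In that order, the summed Serpina1 copies had log2 ratios of -0.150, -0.169, -0.171 and -0.193, against -0.186 as reported. The summed Serpina3 copies had -0.917, -0.937, -0.938 and -0.960, against -0.953. The number of Serpin genes lower, 3 of 22 as reported, was 6 of 32 with a minimum of 1 CPM and 7 of 39 with none. It was 2 of 16 with a minimum of 50 CPM, 5 of 22 at 1.5-fold and 1 of 22 at 4-fold. With the copies of Serpina1 and Serpina3 summed it was 1 of 15. Over all genes, 90 of 12065 were higher and 55 lower at a minimum of 1 CPM. At 50 CPM 37 of 3030 were higher and 15 lower, and with no minimum 94 of 15526 were higher and 60 lower. Of the 7761 genes, 161 were higher and 108 lower at 1.5-fold, and 8 higher and 6 lower at 4-fold. The minimum, the fold and the summing set these counts by their construction. Of 210 values for 35 single members, 185 moved by less than their counting interval. The signs of Serpina3h and Serpind1 changed with scaling. No paired analysis was possible because each group is 1 pooled library. Depth limits the genes under 10 reads, and neither mouse nor library variation can be estimated. With 100-base stretches, 6 in place of 8 genes had less than 90% unique sequence.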
